A study of Mus musculus with 10 samples.

Results

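The Gimap genes encode the GTPases of immunity-associated proteins, and 8 genes of the 56748 in the count table carry the family's name followed by a number: Gimap1, Gimap3, Gimap4, Gimap5, Gimap6, Gimap7, Gimap8 and Gimap9. They were chosen for description because several of them had lower values in KO than in control adipocytes in these same libraries, so that their KO against control values, and whether they passed the limit of the fit across all genes, describe what the choice already used and are no independent test. RNA-seq covered 5 libraries of adipocytes grown from control mice and 5 of adipocytes grown from mice lacking Fam20c in adipocytes (Ad-Fam20c–KO, here KO). Control mice carried the floxed Fam20c allele, and KO mice carried the same floxed allele together with Adiponectin-Cre, whose Cre recombinase is driven by the promoter of adiponectin and is therefore active in adipocytes. The mice were males of 6 to 8 weeks, backcrossed to C57BL/6J for at least 5 generations. The stromal vascular fraction of their inguinal fat, which holds preadipocytes together with endothelial, blood and vessel-wall cells, was differentiated with an adipogenic cocktail for 6 to 8 days. The libraries held 18949106 to 26237825 counts in control and 19883101 to 23291792 in KO, and nothing in the labels says whether each came from a separate animal, so the spread between libraries may be technical in part. Fam20c, the targeted kinase gene, was at 10.2 ± 1.29 CPM (reads of a gene relative to the TMM-scaled size of its library; SD, n = 5) in the control libraries and 7.30 ± 0.449 CPM (SD, n = 5) in the KO libraries, a log2 fold change of -0.49 (adjusted p = 0.0137 by edgeR's quasi-likelihood test), and its counts cover floxed and other exons alike.

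GIMAP proteins share a GTP-binding domain of the AIG1 type, named after a plant gene induced in resistance to bacteria, and most members sit on intracellular membranes through a hydrophobic tail or through a partner. They are best known from lymphocytes, where loss of Gimap5 shortens the life of T cells, and members have been reported to bind proteins of the Bcl-2 family, the regulators of apoptosis. GIMAP6 binds GABARAPL2, an autophagy protein of the Atg8 family. Endothelial cells also express members of the family.

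The 8 genes lie side by side on chromosome 6, from 48647234 to 48770851 in GENCODE M21 on GRCm38, a span of 123.6 kb. Gimap8, Gimap9, Gimap4, Gimap7, Gimap1 and Gimap5 are on the plus strand, and Gimap6 and Gimap3 on the minus strand. Gimap8 occupies 48647234 to 48660875, Gimap9 48676129 to 48679114, Gimap4 48684549 to 48692060 and Gimap6 48701582 to 48708225. Gimap7 follows at 48718621 to 48724636, Gimap1 at 48739054 to 48743795, Gimap5 at 48746197 to 48754210 and Gimap3 at 48764464 to 48770851. All 8 are annotated as protein coding, and the counts are sums over the exons of each gene.

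Upstream sequences from RefSeq (GRCm38.p6) are printed for 4 members because they differ in the level found here: Gimap4 and Gimap6 had the most counts, Gimap8 had the largest decrease, and Gimap7 had no counts. Each runs 5′ to 3′ on the gene's own strand and stops before the first base that either annotation places in an exon. Capitals mark letters of any of 8 short motifs on either strand. For ETS factors, AGGAAG (a core with flanking bases, here the ETS core motif) and the high-affinity CCGGAAG were searched, and no other form of the site. The motif of GATA factors is AGATAA, that of RUNX factors TGTGGT, and that of SOX factors ACAATG. The TATA box is TATAAA, the short site of the cAMP response TGACGT, and the site of KLF factors CCACCC.
Gimap4 (chr6:48684328-48684548, plus strand): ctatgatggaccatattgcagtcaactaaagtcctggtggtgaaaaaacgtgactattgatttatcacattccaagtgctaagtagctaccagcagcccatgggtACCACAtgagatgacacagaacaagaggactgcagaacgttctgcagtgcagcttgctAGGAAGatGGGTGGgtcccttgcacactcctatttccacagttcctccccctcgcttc
Gimap6 (chr6:48708245-48708494, minus strand): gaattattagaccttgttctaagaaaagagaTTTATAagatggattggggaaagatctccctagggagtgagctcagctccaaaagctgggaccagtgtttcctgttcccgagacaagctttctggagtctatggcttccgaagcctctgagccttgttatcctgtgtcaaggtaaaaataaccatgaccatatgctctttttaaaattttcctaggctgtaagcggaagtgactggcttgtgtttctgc
Gimap8 (chr6:48646984-48647185, plus strand): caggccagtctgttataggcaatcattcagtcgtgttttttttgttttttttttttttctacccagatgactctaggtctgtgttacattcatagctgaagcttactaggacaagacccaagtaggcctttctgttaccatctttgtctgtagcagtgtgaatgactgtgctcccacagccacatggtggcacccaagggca
Gimap7 (chr6:48718371-48718606, plus strand): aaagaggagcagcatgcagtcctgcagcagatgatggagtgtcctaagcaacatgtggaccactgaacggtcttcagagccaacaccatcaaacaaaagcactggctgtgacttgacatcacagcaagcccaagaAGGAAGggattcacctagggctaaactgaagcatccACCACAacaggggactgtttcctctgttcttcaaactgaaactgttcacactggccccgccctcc
In Gimap4 the capitals are a RUNX, an ETS and a KLF motif, in Gimap6 the reverse complement of the TATA box, and in Gimap7 an ETS and a RUNX motif, while the printed stretch of Gimap8 held none of the 8.

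The motif search covered 300 bases around each RefSeq start, from 250 before it to 50 after it, in 9 windows for the 8 members (Gimap8 has 2 starts) and in 32851 windows of all genes; no 2 of the 8 motifs contain one another. The ETS motif AGGAAG was found for 7 of the 8 members, in 7 of their 9 windows, and in 35.4% of all windows. Gimap6 was the exception for these letters, and ETS sites written otherwise than the forms searched were not counted. KLF motifs were found for Gimap3, Gimap4, Gimap5, Gimap8 and Gimap9 and in 31.5% of all windows. The RUNX motif was found for Gimap1, Gimap4 and Gimap7 and in 16.8% of all windows. TATAAA was found for Gimap6 and in 13.6% of all windows. The high-affinity ETS, GATA, SOX and cAMP response motifs were found in 8.86%, 11.2%, 12.6% and 7.51% of all windows and in none of the members' windows. Of 19 windows of the endothelial marker genes described below, 10 held the ETS core motif, 8 the KLF motif, 3 each the GATA motif and TATAAA, 1 each the SOX and cAMP response motifs, and 0 the RUNX or the high-affinity ETS motif. On the gene's own strand alone, the ETS core motif was found for 6 members, KLF for 2, and RUNX and TATAAA for 0. The members with the ETS core motif include both of the genes with no counts, so the motif did not separate detected from undetected members.

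Of the 8 members, 5 passed the filter on low counts and were tested (Gimap4, Gimap5, Gimap6, Gimap8 and Gimap9), Gimap1 was counted at levels too low to test, and Gimap3 and Gimap7 had 0 counts in all 10 libraries. In KO adipocytes, Gimap4, Gimap6 and Gimap8 were at 0.456, 0.456 and 0.422 times the control level, each with a log2 fold change between -1.23 and -1.13, with all 5 KO libraries below all 5 control libraries. Gimap5 and Gimap9 had log2 fold changes of -0.69 and -0.68 and their libraries overlapped between groups. With a limit of 0.05 on the adjusted p-value, 3 of the 5 tested members were lower, against a background of 1.86% of the 14270 genes tested, and 0 were higher, against 0.308%. The same 3 members had no overlap between groups, against 2.66% of all genes tested. The members were chosen on this contrast, so nothing is read from these shares.

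Gimap6, whose protein binds the autophagy protein GABARAPL2, was the member with the most counts. Control libraries 1 to 5 held 126, 198, 164, 146 and 208 counts, which is 6.61, 7.42, 7.71, 7.06 and 8.79 CPM. KO libraries 1 to 5 held 62, 76, 83, 83 and 65 counts, which is 3.08, 3.34, 3.62, 3.80 and 3.31 CPM. The highest KO library was thus well below the lowest control library. Control libraries averaged 7.52 ± 0.823 CPM and KO libraries 3.43 ± 0.285 CPM (SD, n = 5 each), with a fitted log2 fold change of -1.13 with a standard error of 0.101. Its spread between libraries, 10.9% of the mean in control and 8.31% in KO, was close to what counting alone gives at this depth, 7.71% and 11.6%.

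Gimap4, which lies next to Gimap6 and is transcribed in the opposite direction, encodes a member studied in T cells as a modulator of apoptosis. It had 64, 127, 103, 80 and 105 counts in control libraries 1 to 5, or 3.36, 4.76, 4.84, 3.87 and 4.44 CPM. It had 43, 42, 37, 44 and 41 counts in KO libraries 1 to 5, or 2.13, 1.84, 1.61, 2.02 and 2.09 CPM. KO libraries fell in a narrow band below control library 1, the lowest of its group. The group means were 4.25 ± 0.631 and 1.94 ± 0.212 CPM (SD, n = 5 each), with a log2 fold change of -1.14 with a standard error of 0.134.

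Gimap8 is the longest gene of the family and its protein is unusual in carrying several GTP-binding domains in a row. Its counts were 27, 25, 39, 33 and 39 in control libraries 1 to 5 (1.42, 0.937, 1.83, 1.60 and 1.65 CPM). In KO libraries 1 to 5 they were 14, 15, 14, 10 and 14 (0.694, 0.659, 0.611, 0.458 and 0.713 CPM). Control library 2 came closest to the KO libraries but stayed above them. The log2 fold change was -1.23 with a standard error of 0.215, from 1.49 ± 0.341 to 0.627 ± 0.102 CPM (SD, n = 5 each).

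Gimap9 had 25, 29, 37, 24 and 37 counts in control libraries 1 to 5 and 16, 19, 13, 21 and 22 in KO libraries 1 to 5. KO library 5, at 1.12 CPM, lay above control library 2, at 1.09 CPM, and the other 4 KO libraries lay below all controls. Its means were 1.37 ± 0.275 and 0.855 ± 0.205 CPM (SD, n = 5 each), a log2 fold change of -0.68 with a standard error of 0.208 that did not pass the limit. Gimap5, the member best known for T cell survival, had 11, 16, 11, 7 and 14 counts in control and 8, 5, 12, 9 and 1 in KO libraries 1 to 5. The groups overlapped widely, and the log2 fold change of -0.69 had a standard error of 0.372.

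Gimap1, which is needed for the survival of mature B and T lymphocytes, had 7, 12, 9, 4 and 8 counts in control and 3, 6, 11, 5 and 3 in KO libraries 1 to 5, and its groups overlapped as well. It had 40 counts over all control and 28 over all KO libraries, and no difference was detectable at this depth. Gimap3 and Gimap7 had 0 counts in each library, which allows at most 0.112 to 0.157 CPM in a library at a floor of 3 counts; intervals and floors here cover counting error only. The antisense gene Gimap1os had 1 count, in KO library 5, and Gm28053, a model that joins exons of Gimap7, Gimap1 and Gimap5, had 0.

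**Figure D1:**
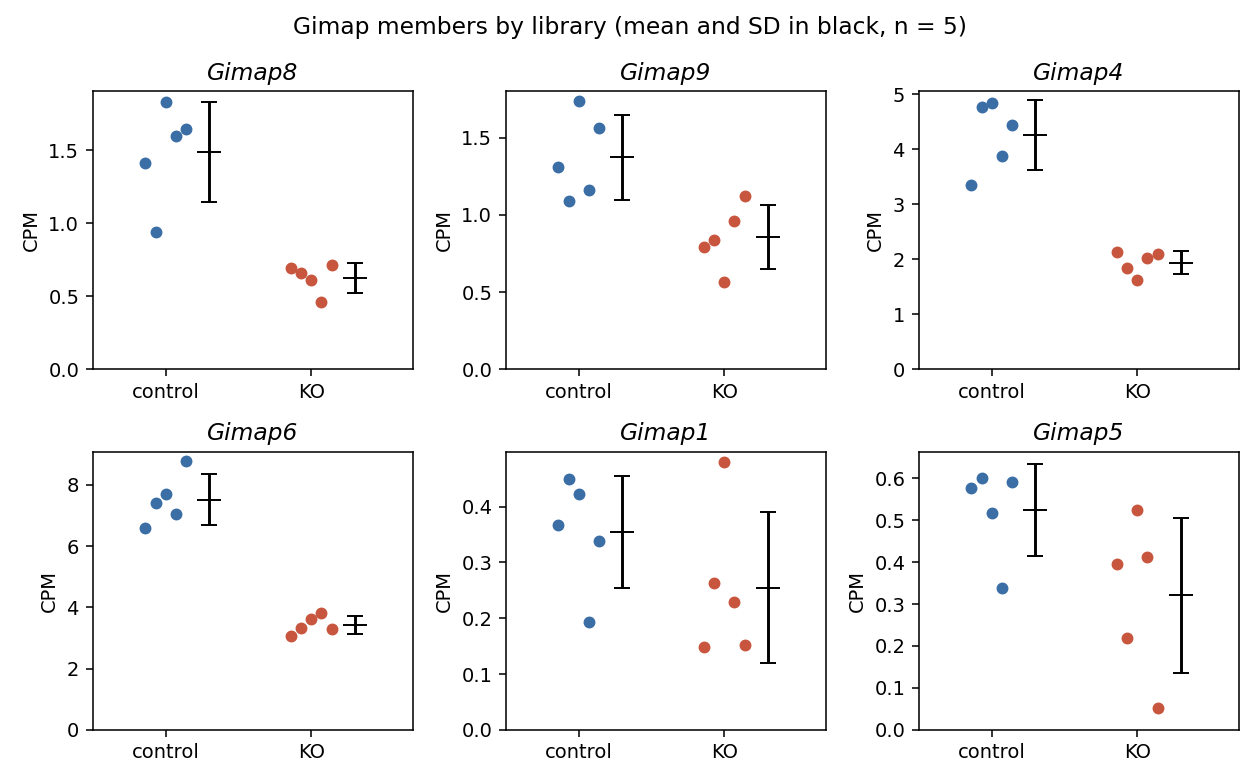
CPM (linear axes from 0) of the 6 detected Gimap members in 5 control and 5 KO libraries, with each point a library and the mean and SD in black. For Gimap4, Gimap6 and Gimap8 all KO points lie below all control points; for Gimap9, Gimap1 and Gimap5 the groups overlap.

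Reads of most members can be assigned to 1 gene. In GENCODE M21, all of the stretches of 50 bases in transcripts of Gimap4, Gimap8 and Gimap9 were unique to the gene, as were 99.8% for Gimap6 and 98.6% for Gimap7. The share was 93.2% for Gimap5 and 91.9% for Gimap3, a pair of close relatives that have such stretches in common, so low counts of either are uncertain. It was 64.5% for Gimap1, and 36.0% of its exon length overlaps Gimap1os or Gm28053 on either strand. The strand setting of the counting and its handling of reads in shared exons are not given in the sources used here. Gimap1 counts may therefore include antisense reads or miss reads of Gimap1 itself.

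Counts per gene depend on its length, and levels between members were therefore compared as CPM per kb of exon over all 10 libraries. Gimap4 was at 1.69 and Gimap6 at 1.57 CPM per kb, followed by Gimap9 at 0.678, Gimap8 at 0.286, Gimap5 at 0.102 and Gimap1 at 0.0991. For 5 neighbouring pairs in this order, log2 levels were compared within libraries by an exact 2-sided sign-flip permutation test with Benjamini-Hochberg adjustment over the 5 pairs. Gimap6 lay above Gimap9, Gimap9 above Gimap8 and Gimap8 above Gimap5 in 10 of 10 libraries, by 1.07, 1.32 and 1.32 on the log2 scale (exact p = 0.00195 for each, the smallest that 10 libraries can give, adjusted p = 0.00326). The gap between Gimap6 and Gimap9 averaged 1.30 in control and 0.83 in KO libraries, and that between Gimap9 and Gimap8 1.08 and 1.55, on the log2 scale; these differences between groups are part of the contrast the members were chosen on. Within KO libraries the order was the same except that Gimap1, at 0.0829 CPM per kb, stood above Gimap5, at 0.0773. Gimap4 lay above Gimap6 in 7 of 10 libraries (exact permutation, adjusted p = 0.0903), and Gimap5 above Gimap1 in 5 of 10 (adjusted p = 0.537), so neither pair could be ordered. With the length of the longest transcript in place of all exons, Gimap6 stood at 1.72 and Gimap4 at 1.72 CPM per kb, Gimap1 moved above Gimap5, and Gimap8 was no longer separated from its neighbour, Gimap1 (exact permutation, adjusted p = 0.0846). These levels are low for the culture: the mean CPM of Gimap6 ranked above 29.3% of the genes tested, and that of Gimap4 above 22.5%.

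Summed over the 8 members, the family took 13.6 to 17.4 CPM in control and 7.16 to 7.88 CPM in KO libraries, with means of 15.5 ± 1.67 and 7.43 ± 0.279 CPM (SD, n = 5 each). The log2 ratio of these means was -1.06. The shares of single members in this sum overlapped between the groups. Gimap6 took 48.5 ± 2.05% of the family's CPM in control and 46.1 ± 2.65% in KO, and Gimap4 took 27.4 ± 2.58% and 26.1 ± 2.93% (SD, n = 5). Gimap8 took 9.60 ± 2.03% and 8.49 ± 1.59%, and Gimap9 8.82 ± 1.21% and 11.5 ± 2.66% (SD, n = 5). Gimap5 and Gimap1 took the smallest shares in both groups, 3.40 ± 0.733% and 2.29 ± 0.635% in control (SD, n = 5).

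The labels describe the samples as primary adipocytes, and 12 of 12 adipocyte markers were detected. They summed to 40506 ± 545 CPM in control and 42657 ± 944 CPM in KO libraries (SD, n = 5), the 2 ranges not overlapping. Fabp4 made up the largest share of this sum, with 20805 ± 357 CPM in control and 22552 ± 945 CPM in KO (SD, n = 5). Its log2 fold change was 0.12 (adjusted p = 0.387 by edgeR's quasi-likelihood test). By edgeR 0 of the 12 were called (5 were higher at an unadjusted p-value under 0.05, and 2 were called higher by DESeq2 and 1 by limma voom). Their median log2 fold change was 0.08, and 2 of the 12 were below 0. Of all 14270 genes tested by edgeR, 1697 had an unadjusted p-value under 0.05 in either direction, the background for such counts in the lists below. The other cell types of the stromal vascular fraction were also present, and their markers were set beside the Gimap genes. In bulk RNA a lower number of cells of a type and less RNA per cell cannot be told apart.

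Most endothelial markers were lower in KO, as were the Gimap members. Of 25 markers, all tested, 19 were lower and 0 higher in KO, and their median log2 fold change was -1.03, against -1.13 for the 5 tested Gimap genes and -0.00085 for all genes tested. Both lists were assembled with earlier results of these libraries known. The endothelial adhesion molecule Pecam1 fell from 42.0 ± 4.71 to 18.0 ± 4.06 CPM (SD, n = 5 each), by 1.23 on the log2 scale. The junctional cadherin Cdh5 fell by 1.27 on the log2 scale, and the ETS factor Erg by 1.37. The guidance receptor Robo4 had the largest decrease of the list, -1.65 on the log2 scale, and Ly6c1, at 178 ± 24.4 CPM in control and 170 ± 17.8 CPM in KO (SD, n = 5), the smallest, -0.06. Flt1, Ly6c1, Podxl, Tal1, Tek and Vwf were the markers not past the limit. The members' decreases lay inside the range of the endothelial list: 9 of the 25 markers had a larger decrease than Gimap8, 11 a larger one than Gimap4 or Gimap6, and 19 a larger one than Gimap5 or Gimap9. The part of endothelial content in the decrease of the Gimap genes was not tested.

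Levels of the family relative to endothelial genes depended on 1 marker. The 25 markers summed to 477 ± 31.2 CPM in control and 316 ± 9.27 CPM in KO libraries (SD, n = 5), of which Ly6c1 made up the largest share. As a percentage of this sum, the Gimap family was at 3.24 ± 0.146% in control and 2.35 ± 0.0730% in KO (SD, n = 5), and the ranges did not overlap. Without Ly6c1, a choice made after seeing the data, the markers summed to 299.7 ± 21.0 CPM in control and 146 ± 16.5 CPM in KO (SD, n = 5). The family was then at 5.17 ± 0.379% of the sum in control (range 4.61 to 5.61) and 5.13 ± 0.677% in KO (range 4.20 to 6.02; SD, n = 5), with a log2 ratio of the means of -0.01 in place of -0.47. Relative to Pecam1 alone, Gimap6 was at 18.0 ± 1.79% in control and 20.0 ± 5.55% in KO, and Gimap4 at 10.2 ± 1.54% and 11.2 ± 2.53% (SD, n = 5). Gimap8 was at 3.52 ± 0.640% and 3.55 ± 0.553% of Pecam1, and Gimap9 at 3.27 ± 0.565% and 5.00 ± 1.85% (SD, n = 5). The ranges of the groups overlapped in each of these 4 ratios.

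**Figure D2:**
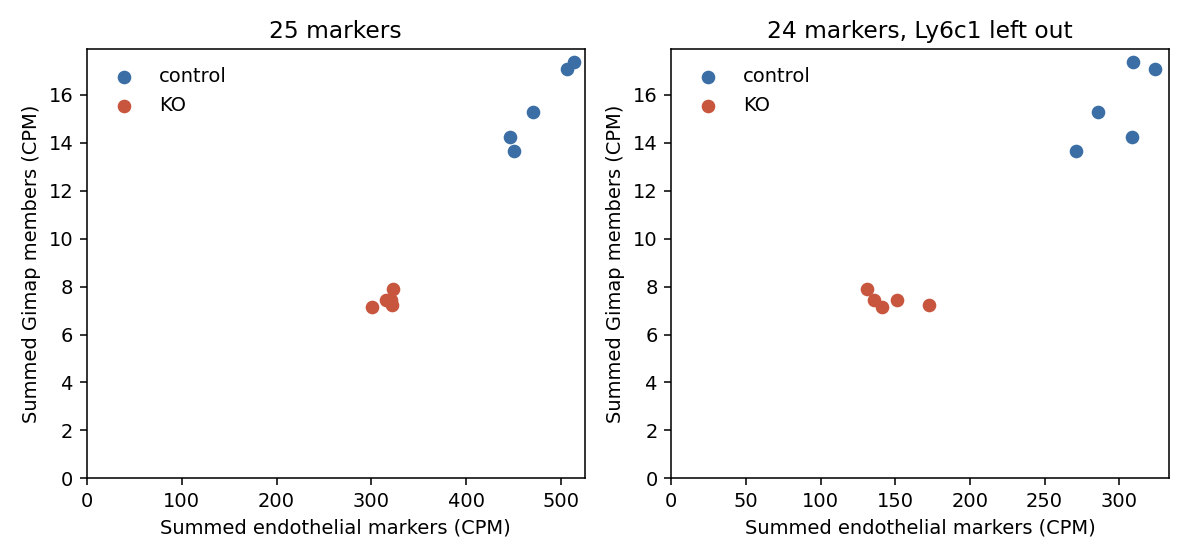
Summed CPM of the 8 Gimap members against summed CPM of endothelial markers, with all 25 markers (left) and with Ly6c1 left out (right), each point a library. Control libraries lie at 13.6 to 17.4 CPM and KO libraries at 7.16 to 7.88 CPM of the family, and the groups are also apart on both marker sums.

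Lymphocytes, the cells in which the family is best known, left few reads in these cultures. Of 22 lymphocyte markers, 7 had 0 counts in all 10 libraries, among them Ncr1 of natural killer cells and Cd3d and Cd3g of the T cell receptor complex. Cd3e had 10 counts over all libraries, and 15 of the 22 genes had under 10. Trac, of the T cell receptor, had the most of the untested markers, 44 counts (1 to 8 a library), beside 68 for Gimap1 and 94 for Gimap5. Only Il2rg, Il7r and Lck passed the filter on low counts, with log2 fold changes of -0.20, 0.19 and -0.18, none past the limit by edgeR, DESeq2 or limma voom and 0 at an unadjusted p-value under 0.05. The lymphocyte markers summed to 3.60 to 5.51 CPM in control and 3.21 to 6.85 CPM in KO libraries, overlapping ranges below those of the Gimap family in control. Of 16 myeloid markers, 0 were called by edgeR, DESeq2 or limma voom, 0 had an unadjusted p-value under 0.05, and the median log2 fold change was -0.02. Of 7 platelet markers, 4 were at 0 counts, and of the tested pair Itga2b had a log2 fold change of -0.32 and Pf4 of 0.15, neither past the limit. Itga2b was lower at an unadjusted p-value under 0.05.

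Among the remaining cells of the stromal vascular fraction, 10 of 12 pericyte and smooth muscle markers were tested, 0 were called by edgeR, DESeq2 or limma voom, and the median log2 fold change was -0.24. At an unadjusted p-value under 0.05, 5 of these 10 were lower, against 1697 of all 14270 genes tested in either direction. Of 10 adipose progenitor markers, 4 were called lower: the matrix proteoglycan Lum (log2 fold change -0.78), the collagens Col3a1 (-0.47) and Col1a1 (-0.38), and the receptor Pdgfra (-0.31). All 10 had a log2 fold change below 0, 6 were lower at an unadjusted p-value under 0.05, and limma voom called 5. The median of the progenitor list was -0.35, a smaller decrease than in the Gimap or endothelial list.

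Lists of the reported partners, of related GTPases and of vesicle and junction traffic genes gave 2 calls by edgeR, Septin11 and Rasip1, both lower in KO. Of 18 genes of the Bcl-2 family, 16 were tested and 0 were called by edgeR, DESeq2 or limma voom (2 at an unadjusted p-value under 0.05), with a median log2 fold change of 0.05; among the most abundant, the apoptosis regulators Bnip3 and Mcl1 had values of 0.26 and 0.09. Each of the 5 Atg8 genes was tested, 0 were called by any of these tools and 1 had an unadjusted p-value under 0.05. Gabarapl2, whose product is the partner of GIMAP6, was at 48.1 CPM in control and 49.9 CPM in KO, a log2 fold change of 0.05. Of 20 other GTPases of immunity (the interferon-inducible Gbp, Irg and Mx genes), 15 were tested and 0 were called by these tools (3 at an unadjusted p-value under 0.05), with a median of -0.08. Tgtp2 had the lowest value, -0.78, at an adjusted p of 0.318 by edgeR's quasi-likelihood test. Gbp4, at -0.73, was closer to a call (adjusted p = 0.0890 by the same test). Of 13 septins, GTPases related in fold to the GIMAP domain, 11 were tested and Septin11 was lower, with a log2 fold change of -0.24. Larger decreases that did not pass the limit were those of Septin4, -0.77, and Septin6, -0.44 (adjusted p = 0.220 and 0.0769 by edgeR's quasi-likelihood test). Of the 11, 10 had a log2 fold change below 0 and 5 were lower at an unadjusted p-value under 0.05. A list of 17 genes of vesicle and junction traffic held 16 small GTPases and Rasip1, which binds Ras-family GTPases at endothelial junctions and is not itself a small GTPase. Rasip1 was lower, with a log2 fold change of -1.06. By edgeR none of the 16 small GTPases passed the limit, and by DESeq2 Rhob was called higher, with a log2 fold change of 0.14.

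**Figure D3:**
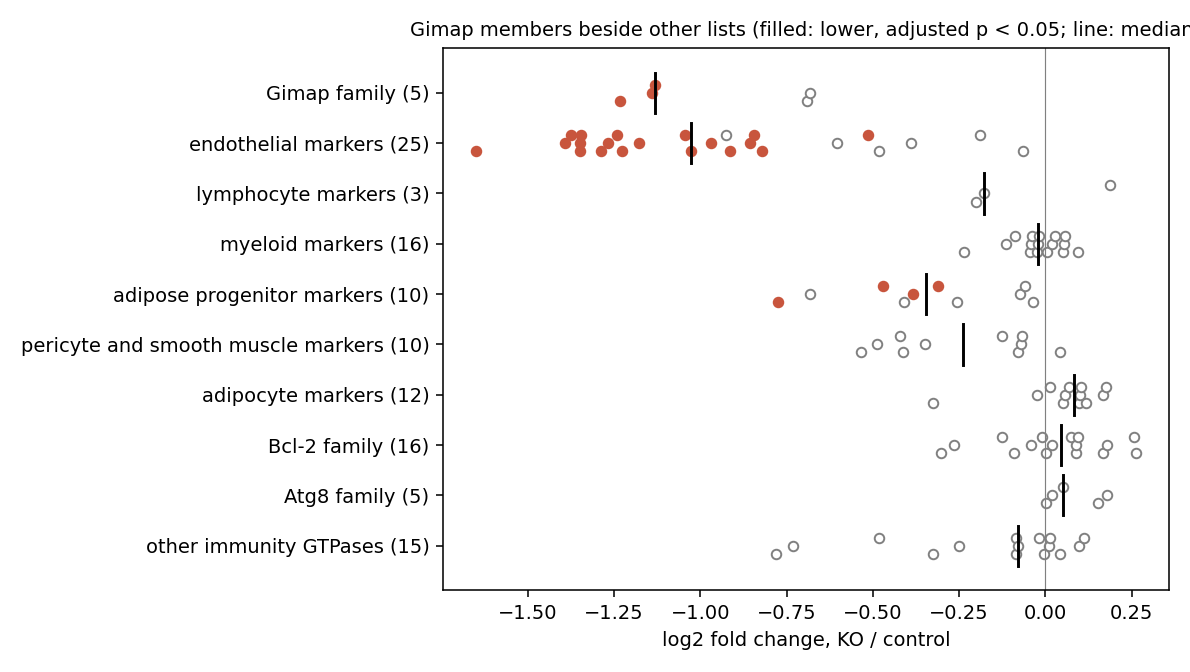
Log2 fold change (KO over control) of each tested gene in the Gimap family and in 9 other lists, with the number tested in brackets, filled points for genes lower at an adjusted p under 0.05, open points for the others and a black line at the list's median. The Gimap points lie between -1.23 and -0.68, within the span of the endothelial markers, and the medians of the other 8 lists lie between -0.35 and 0.08.

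Genes next to the family on chromosome 6 were not called. Of 51 genes of the table within 500 kb of the family, 16 were tested, 0 were called by edgeR, DESeq2 or limma voom, 1 had an unadjusted p-value under 0.05, and the median log2 fold change was 0.02, with a range from -0.48 (Sspo) to 0.23 (AI854703). The nearest tested gene before Gimap8 was AI854703, with 6 to 15 counts a library and a standard error of 0.298, and Tmem176b and Tmem176a, a pair of membrane protein genes expressed in myeloid cells, lie nearest after Gimap3, which itself had 0 counts. Tmem176b was at 168 ± 7.52 CPM in control and 168 ± 13.8 CPM in KO (SD, n = 5), and Tmem176a at 93.6 ± 4.84 and 93.1 ± 7.38 CPM (SD, n = 5). Rarres2, the gene of the adipokine chemerin and the most abundant neighbour, was at 605 ± 91.9 CPM in control and 645 ± 70.3 CPM in KO (SD, n = 5). Krba1 was the neighbour closest to a call, at -0.40 on the log2 scale (adjusted p = 0.0953 by edgeR's quasi-likelihood test); without control library 5 the adjusted p was 0.0365.

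**Figure D4:**
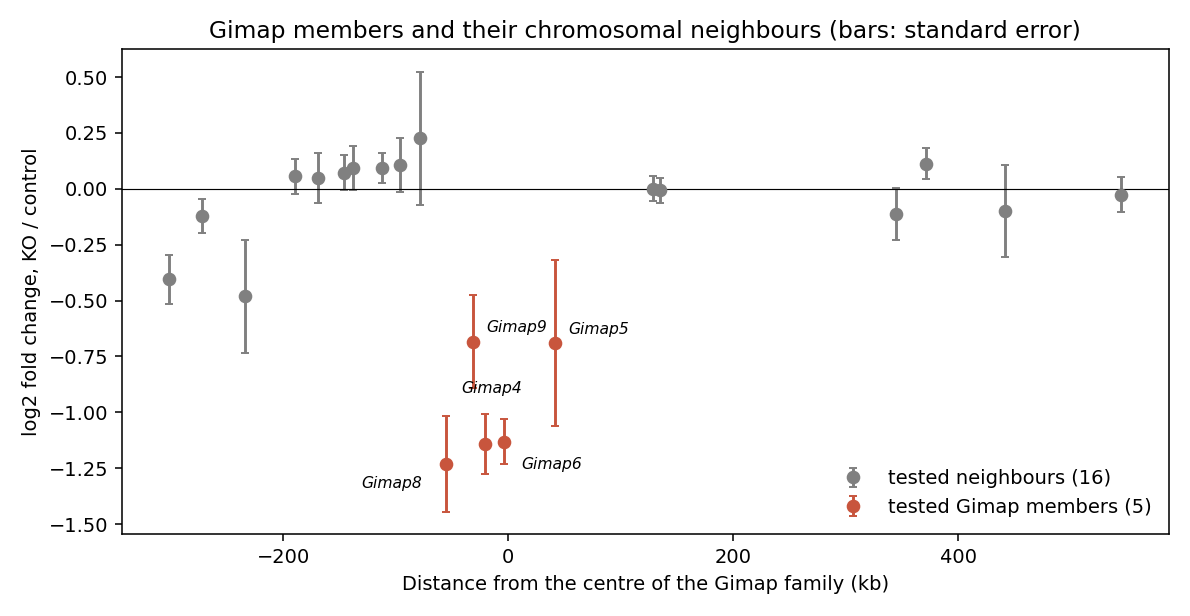
Log2 fold change (KO over control) with its standard error for the 5 tested Gimap members and 16 tested neighbours, against distance from the centre of the family in kb. The members lie between -1.23 and -0.68, while the neighbours on both sides lie between -0.48 and 0.23.

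Whether the members varied together within groups could not be decided at this depth. Their spread between libraries was mostly close to or below what counting alone gives, so a correlation near 0 can arise either way. For Gimap4 the spread was 14.8% of the mean in control and 10.9% in KO libraries, against 10.2% and 15.5% from counting. After each group's mean was removed, Pearson's r between pairs of the 5 tested members over the 10 libraries ran from -0.50 to 0.51 over 10 pairs, with a median of 0.09. For the summed family, r was computed with each of 12801 genes with a mean of at least 1 CPM. The highest was that of Ndufb5, a subunit of respiratory complex I (r = 0.94, Spearman's rho = 0.94, and r = 0.88 without the 2 libraries farthest from the median). It was followed by A130051J06Rik, Lix1l, Raly, Timm13, Mrpl46, Gnptg, Pdcd6, Eny2 and Acsl5, down to r = 0.91. None of the 10 was an endothelial marker, and 0 were called between KO and control. Fam20c, lower in KO, came at rank 12 (r = 0.91, rho = 0.92, and r = 0.88 without the 2 farthest libraries). The summed family deviated from its group's mean by -0.18 to 0.17 in control and -0.05 to 0.09 in KO libraries, on the log2 scale. The control libraries thus carry most of the weight in each r, and the 2 farthest libraries were both controls. The median r was 0.09 over 23 endothelial markers and -0.02 over all genes compared. These values are descriptions over 10 points that share libraries and depth and are the highest of many.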

How the data were processed

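Sequencing libraries came from the SMARTer v4 kit followed by Nextera XT and were read for 50 paired-end cycles. STAR, run by the authors, placed the reads on GRCm38.p6. The authors then took the fragments of each gene from featureCounts with an annotation from Ensembl, and what they deposited are raw counts of 56748 genes with no normalization; 0 columns belonged to other samples. Strand setting and annotation release are not given in the sources used here. Of the gene identifiers, 52073 were found in GENCODE M21, which gave positions and lengths.

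From the counts, edgeR 4.0.16 (R 4.3.3) kept 14270 genes by filterByExpr at a minimum count of 10, scaled libraries by TMM, and compared KO with control by its quasi-likelihood test, with Benjamini-Hochberg adjusted p-values read at 0.05. CPM used TMM-scaled library sizes, and log2 values a prior count of 2. Genes named are the 8 members, other genes of their name, Fam20c, neighbours within 500 kb, the strongest or most abundant genes of each list, and the 10 genes most like the family; any further gene was picked after its values were known. The members and lists were chosen with earlier results of these data known. The scripts were tested on simulated counts. Alternatives were DESeq2 1.42.0, limma 3.58.1 voom with quality weights, other size factors and filters, a replicate block and each library left out. Libraries of a group differed by more than sampling noise (chi-square per degree of freedom at least 3.29).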

Additional observations from a re-analysis of the deposited data

Results flagged for a closer look

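Dixon's ratio, the gap of the most extreme library to its neighbour over the range of its group, was computed for 32 groups of 5 libraries (CPM of the detected members, and sums of the family and of the marker lists), and 2 passed the 95% critical value, where chance gives about 1.60. No Gimap member and no family sum was among them. The summed pericyte and smooth muscle markers of KO library 3 were at 218 CPM, and the other KO libraries between 268 and 270 CPM (ratio 0.946). The summed lymphocyte markers of KO library 1 were at 6.85 CPM, and the other KO libraries between 3.21 and 4.21 CPM (ratio 0.723). In these libraries the Gimap family summed to 7.42 and 7.24 CPM, inside the range of the KO group.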

How the results depend on the processing

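The members were chosen on this contrast in these libraries, so that their direction and calls under refits of it are no sign of stability. Under the alternatives, all 78 values of the 5 tested members were below 0 and none crossed the limit. Gimap4 and Gimap6 were lower under all 16 alternatives, and Gimap8 under the 15 that tested it; at a filter of at least 1 CPM in 5 libraries Gimap5 and Gimap8 were not tested. Gimap4 ran from -1.21 to -1.08, Gimap6 from -1.17 to -1.07, Gimap8 from -1.37 to -1.10, Gimap9 from -0.79 to -0.56 and Gimap5 from -1.22 to -0.44. Replicate numbers do not pair the libraries: the correlation of same-numbered deviations ran from -0.25 to 0.26, and 1 of 5 control libraries correlated best with its own number. With the replicate block, 3 members were lower, with Gimap4, Gimap6 and Gimap8 as before, and 21 genes were higher and 193 lower. Of all genes tested, 265 were lower and 44 higher in KO; 125 were higher with DESeq2 and 111 with limma voom. With each library left out, 19 to 119 genes were higher (119 without control library 4, 19 without control library 5) and 164 to 323 lower (164 without KO library 2, 171 without KO library 5), and 0 to 1 neighbours were lower. With the gene's own strand alone, members with a RUNX motif went from 3 to 0, with KLF from 5 to 2 and with TATAAA from 1 to 0. Neighbouring pairs separated in the order of levels numbered 3, and 0 in control libraries alone, where the smallest possible exact p is 0.0625. Septin11 lost its call without control library 1, 3 or 5, without KO library 1, 2, 3 or 5 and with the block, and the progenitor list fell from 4 to 2 called genes without control library 5, KO library 2 or KO library 5. Gimap1 (3 to 12 counts a library), Gimap3 and Gimap7 (0 counts) and Gimap5 (1 to 16 counts) are the members whose depth limits a comparison most. The causes of these differences were not tested.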
